A study of Mus musculus with 6 samples.

Results

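The baseline transcriptome of embryonic mouse heart endothelium was described from the 2 wt libraries of a series of 6. Both were made from hearts on embryonic day E14.5, and both Dll4 alleles were intact. The members were chosen by their genotype label alone, and no library with a deleted Dll4 allele was used here. The wt embryos came from Pdgfb-iCreERT2-IRES-EGFP mice mated with wild-type females. They therefore carried the tamoxifen-inducible Cre transgene and received tamoxifen at E13.5, so the group is wild type for Dll4 but not free of transgene or drug. Cells positive for CD31, the protein encoded by Pecam1, and for GFP were sorted from dissected hearts, and their RNA was amplified as full-length cDNA. Because the GFP is expressed under the Pdgfb driver, Pecam1 and Pdgfb were properties of the sort itself. The libraries are numbered replicates 4 and 5, and paired values below are in that order. Litters from several independent females were collected, and the labels do not say how embryos were pooled into each library. Technical and biological spread between the libraries therefore cannot be told apart.

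Endothelial cells line every blood vessel and the inner surface of the heart. They hold together through VE-cadherin and claudin-5, sense vascular endothelial growth factor (VEGF) and angiopoietins through receptor tyrosine kinases, and use Notch signalling, with Dll4 as a main ligand, when arteries are specified. At midgestation the coronary vessels spread through the heart wall, while the endocardium lines the chambers and forms the valve cushions.

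The level of a gene is given in TPM, the usual length-corrected unit, here the count per kilobase of annotated exon, scaled to the same sum, 1000000, over nuclear protein-coding genes other than Lars2. Lars2, a mitochondrial tRNA synthetase gene, was left out of the scaling because it held 16.3% and 16.7% of all counts. Whether these counts came from Lars2 mRNA was not tested. Ranks run from 1, the highest, over 21460 genes. The libraries held 2521532 and 1732132 counts. At this depth 1 TPM of a gene of 2 kb is worth 1.14 and 0.776 counts, so 1 TPM in both libraries is a permissive limit and 5 TPM in both libraries is given beside it. Of all genes, 11092 (51.7%) reached 1 TPM, 9300 (43.3%) reached 5 TPM and 8066 had no count in either library. Only 130 genes reached 1000 TPM. With 1 group of 2 libraries no test between groups was possible, so each statement rests on the levels, their spread and the counts behind them.

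The defining endothelial genes were among the most abundant transcripts. All 30 genes of a pan-endothelial list passed 5 TPM and had at least 10 counts in each library. Their median level was 464 TPM, against 2.37 TPM over all genes, and their median rank was 366. The list holds Pecam1 and Pdgfb, both tied to the sort, and was fixed with earlier results of these data known. Cdh5 (VE-cadherin) was the highest at 1933 and 1868 TPM (1901 ± 45.5, mean ± SD, n = 2), rank 44. Pecam1, used in the sort, was at 549 and 535 TPM (542 ± 9.86, SD, n = 2), rank 297. Kdr, the main VEGF receptor, had 605 and 462 TPM (534 ± 101, SD, n = 2), rank 301. Dll4 stood lower than these 3 at 209 and 193 TPM (201 ± 10.8, SD, n = 2), rank 952. Thus 3 of the 4 markers differed little between the libraries, and Kdr was 1.31-fold higher in replicate 4 (95% interval 1.23 to 1.39, counting error only). On GRCm38, Cdh5 (ENSMUSG00000031871) lies at chr8:104101625-104144511, Pecam1 (ENSMUSG00000020717) at chr11:106654217-106750628, Kdr (ENSMUSG00000062960) at chr5:75932827-75978458 and Dll4 (ENSMUSG00000027314) at chr2:119325784-119335962. The counts are summed over the exons of each gene.

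**Figure D1:**
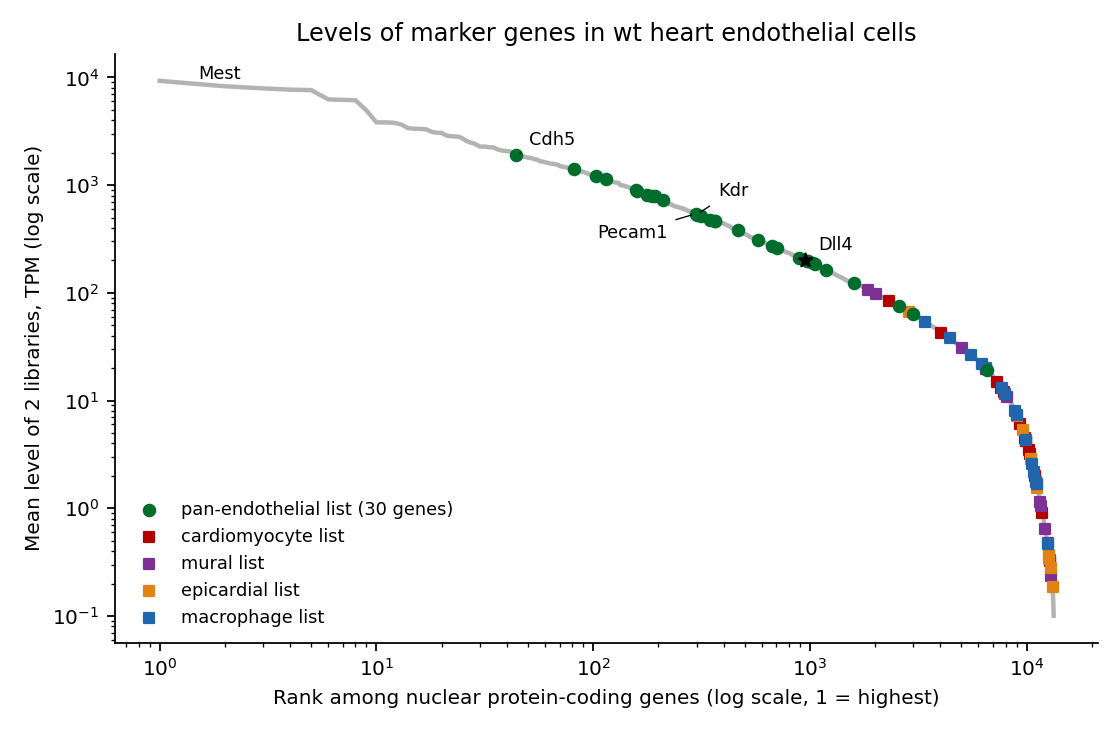
Mean TPM of the 2 wt libraries against rank, both on log scales, for nuclear protein-coding genes (grey line), with the 30 pan-endothelial genes (green circles), Dll4 (star) and the lists of 4 other cell types (squares), genes near 0 not drawn. The pan-endothelial genes run from Cdh5 at rank 44 to Tal1 at rank 6558, and the highest square is the mural-list gene Kcnj8 at rank 1861.

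Below Cdh5, the next pan-endothelial genes were adhesion and surface molecules. Icam2, a leukocyte adhesion ligand, had 1431 and 1366 TPM. Cd93, a surface glycoprotein, had 1319 and 1098 TPM, and Esam, a junctional adhesion molecule, 1099 and 1163 TPM. The levels of Icam2 lay above those of Cd93 in both libraries, while those of Cd93 and Esam overlapped. Sox18, a transcription factor of vessel development, was at 877 and 928 TPM and the tight-junction gene Cldn5 at 880.1 and 899 TPM. Eng, a co-receptor for BMP9 and TGF-β, was at 786 and 844 TPM. At the low end of the list stood Erg, an ETS factor, with 71.4 and 78.8 TPM, and Tal1, a haemato-endothelial factor, with 17.6 and 21.2 TPM and only 44 and 36 counts. The range within the list was therefore wide, although every member lay above the 5 TPM limit.

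Promoter sequence was available from RefSeq (GRCm38.p6) for 16 of the 30 pan-endothelial genes and for Dll4. The 250 bases before the RefSeq start site of 4 genes are shown: the markers Kdr and Dll4, and Robo4 and Calcrl. Robo4 and Calcrl hold a CAGGAAG, in capitals, a form of the GGAA core bound by ETS factors. Their RefSeq starts lie 75 and 145 bases downstream of the GENCODE gene starts used for the other positions given here. Both capitalised matches therefore lie inside the GENCODE gene bounds. Sequences read 5′ to 3′ on the strand of the gene. Kdr is at chr5:75978456-75978705, minus strand, Dll4 at chr2:119325534-119325783, plus strand, Robo4 at chr9:37401722-37401971, plus strand, and Calcrl at chr2:84425267-84425516, minus strand.
Kdr: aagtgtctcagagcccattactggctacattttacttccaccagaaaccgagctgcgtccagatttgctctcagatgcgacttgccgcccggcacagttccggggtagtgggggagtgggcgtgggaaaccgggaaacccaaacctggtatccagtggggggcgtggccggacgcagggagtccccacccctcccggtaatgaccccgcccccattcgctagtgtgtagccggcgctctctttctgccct
Dll4: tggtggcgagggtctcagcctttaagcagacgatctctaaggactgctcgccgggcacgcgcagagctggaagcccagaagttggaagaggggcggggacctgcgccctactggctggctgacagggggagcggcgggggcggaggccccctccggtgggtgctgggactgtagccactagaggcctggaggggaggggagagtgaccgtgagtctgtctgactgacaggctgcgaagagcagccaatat
Robo4: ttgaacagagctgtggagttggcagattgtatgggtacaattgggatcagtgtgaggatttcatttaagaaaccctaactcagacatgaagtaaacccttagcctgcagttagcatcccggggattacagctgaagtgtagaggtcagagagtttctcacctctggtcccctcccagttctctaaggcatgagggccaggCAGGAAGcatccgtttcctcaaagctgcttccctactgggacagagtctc
Calcrl: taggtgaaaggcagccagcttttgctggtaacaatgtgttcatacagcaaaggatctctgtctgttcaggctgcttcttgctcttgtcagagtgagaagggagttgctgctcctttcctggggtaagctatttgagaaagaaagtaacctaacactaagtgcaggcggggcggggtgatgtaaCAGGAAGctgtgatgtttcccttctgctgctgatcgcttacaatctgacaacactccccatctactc

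CAGGAAG on either strand was found in 5 of the 16 promoters (31.2%), those of Robo4, Calcrl, Emcn, Cd34 and Egfl7, against 9.96% of 16296 promoters of the same length. The RefSeq start of Egfl7 lies 1069 bases downstream of its GENCODE start, so its matches also lie inside the GENCODE gene bounds. CCGGAAG, another ETS-type sequence, was in 0 of the 16, against 15.2% of 8800 promoters of genes at 1 TPM or more and 2.33% of 5796 promoters of genes with no count. TATAAA was in 1 of the 16, that of Flt1. Its share was 5.89% in promoters of genes at 1 TPM or more and 11.7% in all promoters. No printed match overlaps another. The median number of CG dinucleotides per promoter was 6 in the endothelial genes, 16 in genes at 1 TPM or more and 2 in genes with no count. The sequences above span this range, with 16 CG in Kdr, 14 in Dll4, 2 in Robo4 and 3 in Calcrl. With 16 promoters these shares describe the matched genes only, and a match is not evidence of binding.

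Genes of vessel subtypes were present to very different degrees, to be read beside the 43.3% of all genes at 5 TPM or more. The arterial and tip-cell lists were nearly complete, with 23 of 24 and 14 of 14 members at 5 TPM or more, and 3 genes stand in both (Igfbp3, Cxcr4 and Unc5b). The highest arterial member was Igfbp3, an IGF-binding protein, at 1573 and 1245 TPM. Depp1, a FOXO-responsive gene, followed at 899.6 and 693 TPM and Gja4 (connexin 37) at 593 and 644 TPM. Efnb2, the classic arterial ephrin, had 165 and 162 TPM, and the Notch target Hey1 143 and 150.0 TPM. Gja5 (connexin 40), a gene of later arterial endothelium, had 141 and 129 TPM and the SoxF factor Sox17 121 and 108 TPM. Levels were far lower for Bmx, an arterial kinase gene, at 10.8 and 21.7 TPM, and for Hey2 at 10.7 and 10.7 TPM. Alpl was the only arterial member under 5 TPM, at 0.87 and 3.20 TPM. The arterial list as a whole had a median of 131 TPM.

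Venous genes were fewer. Of 12 members, 7 reached 5 TPM, with a median of 27.9 TPM. Aplnr, the apelin receptor, held 54.4% of the summed level at 579 and 555 TPM, and Ephb4, the receptor of ephrin-B2, had 173 and 171 TPM. Nr2f2 (COUP-TFII), a determinant of venous identity, was at 29.3 and 22.1 TPM, and its mean of 25.7 TPM became 38.7 TPM with the longest transcript as gene length. The adhesion genes of activated venules were near the limit of counting, with Sele at 4.82 and 6.20 TPM (8 and 7 counts) and Selp at 0.796 and 0.584 TPM (2 and 1 counts). Venous and arterial genes thus coexisted in these bulk libraries, in which fewer cells of a type and less RNA per cell cannot be told apart.

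Among tip-cell genes, Apln, the ligand of Aplnr, was at 325 and 310.2 TPM and Kcne3, a potassium-channel subunit, at 264 and 203 TPM. Esm1 (endocan), often used to mark sprouting cells, had 93.8 and 71.3 TPM, and Angpt2, the antagonist ligand of Tek, 23.8 and 14.7 TPM. Angpt2 was the lowest of the 14.

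The heart-capillary list was strongly represented, with 14 of 16 members at 5 TPM or more and a median of 184 TPM, except that Aqp7 (4.34 and 0.911 TPM) and Timp4 (0.596 and 0.437 TPM) fell under 5 TPM. Fabp4 and Fabp5, cytoplasmic fatty-acid carriers, reached 1751 and 1576 TPM and 1449.7 and 1376 TPM. Cd36, the fatty-acid translocase, had 575 and 553 TPM. The transcription factors Tcf15 and Meox2, which promote fatty-acid transport in heart endothelium, were at 530.2 and 523 TPM and 240.2 and 198 TPM. Gpihbp1, the capillary anchor of lipoprotein lipase, had 347 and 302 TPM, while Lpl itself was at 14.9 and 20.9 TPM, with a mean of 17.9 TPM that became 33.6 TPM with the longest transcript as gene length. The anchor was therefore at a level far above that of the enzyme it binds.

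All 12 endocardial genes were detected at 1 TPM, but 9 reached 5 TPM and the median was 20.3 TPM. Nfatc1, a factor of the endocardium and valves, had 59.5 and 55.9 TPM, and Smad6, an inhibitor of BMP signalling, 68.5 and 72.4 TPM. Npr3, a natriuretic-peptide receptor that marks endocardium at this age, was at 5.80 and 8.78 TPM (31 and 32 counts), rank 9014. Nrg1, the ligand of trabeculation, had 1.53 and 2.74 TPM. The GFP gate admits cells in which the Pdgfb driver was active, and its part in these low levels was not tested.

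Lymphatic genes reached 5 TPM in 3 of 7 cases (42.9% against 43.3% of all genes), and 6 of the 7 were higher in replicate 5. Ccl21a, a lymphatic chemokine with near-identical copies, led at 60.5 and 225 TPM and was 47.3% of the sum. Mmrn1, a multimerin, had 12.9 and 21.5 TPM, while Flt4 (VEGFR3), at 136 and 124 TPM, is shared with venous and sprouting endothelium. Prox1, the lymphatic master factor, had 4.39 and 7.37 TPM and Lyve1 1.20 and 2.65 TPM (2 and 3 counts). Genes of brain endothelium were mostly missing: Mfsd2a, Slco1a4, Foxf2 and Foxq1 had no count in either library, and only the glucose transporter gene Slc2a1 exceeded 5 TPM, at 156 and 164 TPM. For Mfsd2a, 0 counts allow up to 2.34 and 3.44 TPM. Of 6 genes of liver sinusoids, the scavenger receptor Stab1 had 100.2 and 105 TPM and Oit3 53.5 and 48.1 TPM, while Stab2 had 1 and 0 counts.

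**Figure D2:**
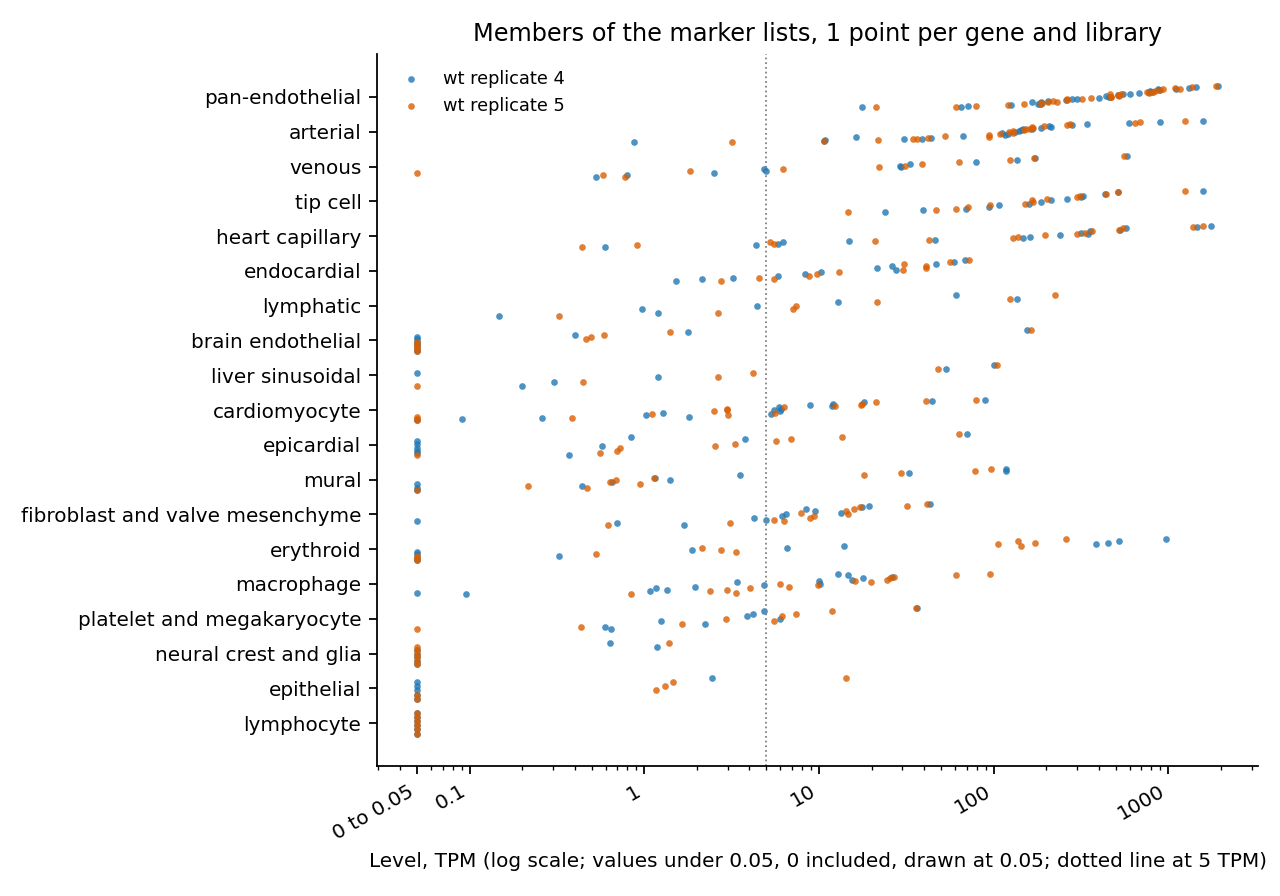
Level of each member of 19 marker lists in TPM on a log scale, 1 point per gene and library (blue, replicate 4; orange, replicate 5), with values under 0.05 TPM drawn at 0.05. All 30 pan-endothelial genes lie to the right of the dotted line at 5 TPM, and all 6 lymphocyte genes lie at 0.

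Receptor tyrosine kinase genes were expressed selectively. Of 58, 25 reached 1 TPM and 18 reached 5 TPM (31.0% against 43.3% of all genes), and 15 had no count. The VEGF and angiopoietin receptors led. Kdr overlapped with Tie1, the orphan partner of Tek, at 456 and 471 TPM. Tek (TIE2), the angiopoietin receptor, was at 184 and 186 TPM, above Ephb4 in both libraries. Flt1, a VEGF receptor that also acts as a decoy, had 178 and 149 TPM and overlapped with Ephb4, and Flt4 lay below both. Ptk7 and Ryk, which take part in Wnt signalling, followed at 78.2 and 86.2 TPM and 80.5 and 79.0 TPM. The stem-cell-factor receptor Kit had 52.4 and 54.7 TPM and Ephb1 37.6 and 36.8 TPM. The insulin and IGF receptors were low, with Insr at 8.68 and 7.50 TPM and Igf1r at 9.09 and 6.45 TPM. The epidermal growth factor receptor gene Egfr had no count, which allows up to 0.465 and 0.683 TPM.

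**Figure D3:**
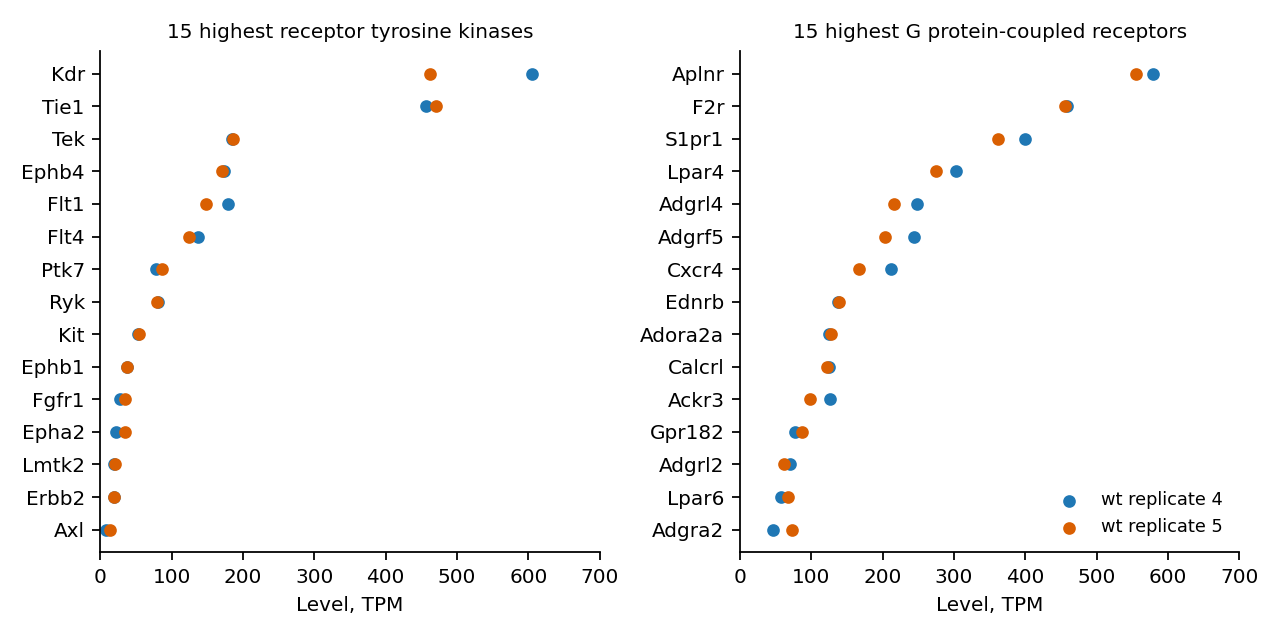
TPM on a linear axis of the 15 highest receptor tyrosine kinase genes (left) and G protein-coupled receptor genes (right) in wt replicates 4 (blue) and 5 (orange). Kdr, at 605 and 462 TPM, shows the widest gap between the libraries on the left, and Aplnr leads on the right at 579 and 555 TPM.

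Of 50 G protein-coupled receptor genes, 23 reached 5 TPM (46.0%) and 11 had no count. Aplnr was the highest. F2r, the thrombin receptor PAR1, had 458 and 455 TPM, and S1pr1, a sphingosine-1-phosphate receptor that stabilises vessels, 399 and 362 TPM. Lpar4, a lysophosphatidic acid receptor, was at 302 and 275 TPM. These 4 did not overlap in level. The adhesion receptors Adgrl4 and Adgrf5 overlapped at 248 and 216 TPM and 244 and 203 TPM. Cxcr4, the CXCL12 receptor, had 212 and 167 TPM and the scavenger Ackr3 126 and 97.8 TPM. Ednrb, the endothelin B receptor, had 137 and 138 TPM, Adora2a, an adenosine receptor, 125 and 128 TPM, and Calcrl, the adrenomedullin receptor, 125 and 121 TPM.

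In the Notch pathway 24 of 30 genes reached 5 TPM, with a median of 36.6 TPM. Among ligands Dll4 led, above Jag2 at 43.9 and 41.8 TPM, Jag1 at 30.7 and 36.3 TPM and Dll1 at 4.99 and 6.72 TPM. Notch4 and Notch1 were the main receptors at 132 and 122 TPM and 117 and 94.4 TPM, and Notch4 was the higher in both libraries. Notch2 had 1.30 and 0.956 TPM and Notch3, the mural-cell receptor, 0.651 and 0.637 TPM. Among targets and modifiers, Nrarp, a feedback inhibitor, had 299 and 234 TPM, Hes1 198 and 194 TPM and the glycosyltransferase gene Mfng 235 and 274 TPM. Rbpj, the DNA-binding partner of Notch, was modest at 13.4 and 13.7 TPM (a mean of 13.6 TPM, or 23.2 TPM with the longest transcript as gene length). Receptors, a ligand and targets of the pathway were therefore all present in the same sorted population.

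Of the TGF-β and BMP receptors, 10 of 14 reached 5 TPM, and Eng held 66.8% of their summed level. Tgfbr2 had 137 and 128 TPM, Acvr1 66.5 ± 13.3 TPM (mean ± SD, n = 2) and Acvrl1 (ALK1), the endothelial BMP9 receptor, 66.7 and 52.6 TPM. Among Wnt receptors Fzd6 had 54.6 and 70.1 TPM, Fzd4 61.9 and 47.9 TPM and Adgra2 (GPR124) 46.2 and 72.7 TPM. Guidance receptors were led by Plxnd1, a semaphorin receptor of vessels, at 1107 and 1009 TPM, which held 55.0% of the summed level of 21 genes. Nrp1, a co-receptor for semaphorins and VEGF, had 342 and 275 TPM, but its mean of 308 ± 47.8 TPM (SD, n = 2) became 611 TPM with the longest transcript as gene length. Robo4 and Unc5b, which counter sprouting, had 190.0 and 186 TPM and 187 and 167 TPM.

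Cytokine receptor genes were present in 13 of 16 cases at 5 TPM. Il2rg, the common gamma chain best known from lymphocytes, was the highest at 284 and 271 TPM (386 and 251 counts). The leukocyte gene Ptprc had 1 and 6 counts and the lymphocyte genes Cd3e, Cd3d, Ms4a1, Cd79a and Nkg7 had none. Of 15 macrophage genes, 7 reached 5 TPM (46.7% against 43.3% of all genes) and 5 had at least 10 counts in each library. The macrophage list summed to 121 and 305 TPM. Which cells gave the Il2rg transcripts was not tested. Tnfrsf1a, the tumour necrosis factor receptor, had 195 and 225 TPM, and the interferon-γ receptor genes Ifngr1 and Ifngr2 171 and 186 TPM and 142 and 107 TPM.

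Of 40 genes for receptor tyrosine kinase ligands, 18 reached 5 TPM (45.0% against 43.3% of all genes). Igf2, a fetal growth factor, was far above the others at 2305 and 2201 TPM, rank 33. Efna1 had 693 and 615 TPM, Kitl (stem cell factor) 271 and 229 TPM and Pdgfb, the mural-cell attractant whose driver marked the sort, 204 and 219.9 TPM. Vegfc, the ligand of Flt4 and Kdr, was at 148 and 154 TPM and Vegfa at 36.0 and 42.7 TPM. The fibroblast growth factor genes Fgf1, Fgf2, Fgf7, Fgf9, Fgf10 and Fgf16 had no count. Tgfb1 led its family at 212 and 179.9 TPM. Among chemokines, Cxcl12 had 24.3 and 21.8 TPM and Cx3cl1 25.5 and 38.0 TPM.

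Of 28 ligand and receptor pairs listed from textbook knowledge after the levels had been seen, 22 had both genes at 5 TPM or more in both libraries. They include Apln with Aplnr, Vegfc with Flt4, Efnb2 with Ephb4, Dll4 with Notch1 or Notch4, Kitl with Kit and Adm with Calcrl. Adm (adrenomedullin) had 107 and 95.5 TPM. In 6 pairs 1 gene or both were under 5 TPM. Angpt1, the activating ligand of Tek, had 0.337 and 0 TPM. Pdgfrb, the receptor of PDGF-B on mural cells, had 0 and 0.47 TPM (0 and 1 counts). Hgf, Nrg1 with Erbb4, Gdf2 and Sema3a were the others. The pairs show what is transcribed in the sorted cells and not which signals were active.

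Transcription factor families were surveyed by symbol, which gave 396 genes. Of these 226 (57.1%) reached 1 TPM and 179 (45.2%) reached 5 TPM, shares near those of all genes. The highest were Id3, an inhibitor of bHLH factors and a BMP target, at 1065 and 1062 TPM, rank 125, and Sox18. Sox7, also of the SoxF group, had 639 and 526 TPM. After Tcf15 came the ETS factors Elk3, at 492 and 472 TPM, and Ets2, at 433 and 457 TPM, which was the lower in both libraries. Ets1 had 288 and 270.0 TPM and Fli1 258 and 262 TPM. Epas1 (HIF-2α) had 279 and 262 TPM and its relative Hif1a 145 and 130.3 TPM. The shear-responsive Klf2 was at 247 and 293 TPM, and its relatives Klf6 and Klf4 were at 308 and 262 TPM and 63.3 and 58.3 TPM. Id1, another BMP target, had 334 and 309 TPM, and Atf4, of the amino-acid response, 232 and 242 TPM.

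Within families, few members carried most of the signal. The SoxF genes Sox18, Sox7 and Sox17 were 3 of the 4 highest of 19 Sox genes, together with Sox4 at 208 and 178 TPM, and 8 Sox genes had no count. Of 39 Hox genes, 4 reached 5 TPM, and the highest, Hoxd8, had 14.1 and 27.2 TPM. No Pax gene of 9 reached 1 TPM. Runx1, Runx2 and Runx3 were each under 1 TPM, while their partner Cbfb had 209 and 182 TPM. Gata2 had 35.8 and 44.4 TPM, Gata4 26.1 and 40.9 TPM and Gata6 23.5 and 25.3 TPM. Mef2c, which acts in heart and vessels, had 50.8 and 51.8 TPM (a mean of 51.3 TPM, or 94.7 TPM with the longest transcript as gene length), and Foxo1, which restrains endothelial growth, 87.5 and 71.4 TPM. Etv2, which starts endothelial development, had no count, which allows up to 5.02 and 7.38 TPM. Tead2, a partner of YAP and TAZ, had 101 and 105 TPM and was 77.3% of the Tead total.

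Claudins and cadherins were each carried by 1 gene. Cldn5 made up 97.1% of the summed level of 23 claudin genes, of which 16 had no count. Cdh5 made up 97.5% of 23 cadherin genes. N-cadherin (Cdh2) had 5.44 and 11.2 TPM, and E-cadherin (Cdh1) had no count. Connexins and integrins were less concentrated. Gja4 was 68.4% of 20 connexin genes, and Gja1 had 121 and 105 TPM, with a mean of 113 TPM that became 219 TPM with the longest transcript as gene length. Among integrins, Itgb1 had 1554 and 1460.1 TPM, with its partners Itga5, for fibronectin, at 282 and 269.6 TPM and Itga6, for laminin, at 253 and 241 TPM. The mean of Itga6, 247 ± 8.15 TPM (SD, n = 2), became 381 TPM with the longest transcript as gene length. All 9 genes of a list of junctional adhesion molecules reached 5 TPM, and the highest, Icam2, was 33.2% of their sum.

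Basement-membrane genes were abundant. Sparc, a collagen-binding matrix protein, ranked 7 of all genes at 6608 and 5794 TPM, and Sparcl1 had 2259 and 2049.9 TPM. The collagen IV chains Col4a1 and Col4a2 had 1848 and 1675 TPM and 1205 and 1079 TPM. The laminin chains Lama4, Lamb1 and Lamc1 of the vascular laminin were at 206 and 167, 199 and 201 and 276 and 214 TPM, whereas Lama5 had 2.47 and 1.81 TPM. Among genes that set vessel tone and clotting, the endothelial nitric oxide synthase Nos3 had 339 and 337 TPM and Edn1 (endothelin-1) 63.2 and 106 TPM. Nos2 had 35.4 and 40.3 TPM, and Nos1 had no count. Vwf, of platelet adhesion, was low at 33.2 and 38.8 TPM and the anticoagulant receptor Thbd had 50.4 and 65.8 TPM.

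Glycolytic genes were present through every step, with a marked choice of isoform. Of 27, 15 reached 5 TPM (19 reached 1 TPM), and 8 had a mean above 1000 TPM. Ldha, which reduces pyruvate to lactate, was the highest at 2319.6 and 2246 TPM (2283 ± 51.7, SD, n = 2), rank 30. Aldoa had 1650.4 and 1592 TPM, Pgk1 1625 and 1598 TPM and Pkm 1529 and 1371 TPM. The mean of Pkm, 1450.2 ± 111 TPM (SD, n = 2), became 2198 TPM with the longest transcript as gene length. Gapdh, which has many pseudogene copies and is uncertain for that reason, had 1246 and 1199 TPM. Slc2a1 (GLUT1) made up 85.7% and 84.2% of 12 hexose transporter genes. Hexokinase was mainly Hk1, at 53.1 and 52.6 TPM (92.8% and 87.0% of 4 genes), while Hk2 had 2.94 and 6.48 TPM. Phosphofructokinase was mainly Pfkl, at 160.1 and 146 TPM (78.2% and 76.6% of 3 genes). Pfkfb3, the activator of endothelial glycolysis, had 37.1 and 29.0 TPM (86.0% and 80.6% of 4 genes). Ldha was 96.9% and 96.5% of the Ldha and Ldhb total. Hk1 and Pfkfb3, of the upper and regulated steps, were thus at levels well under those of the lower steps.

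**Figure D4:**
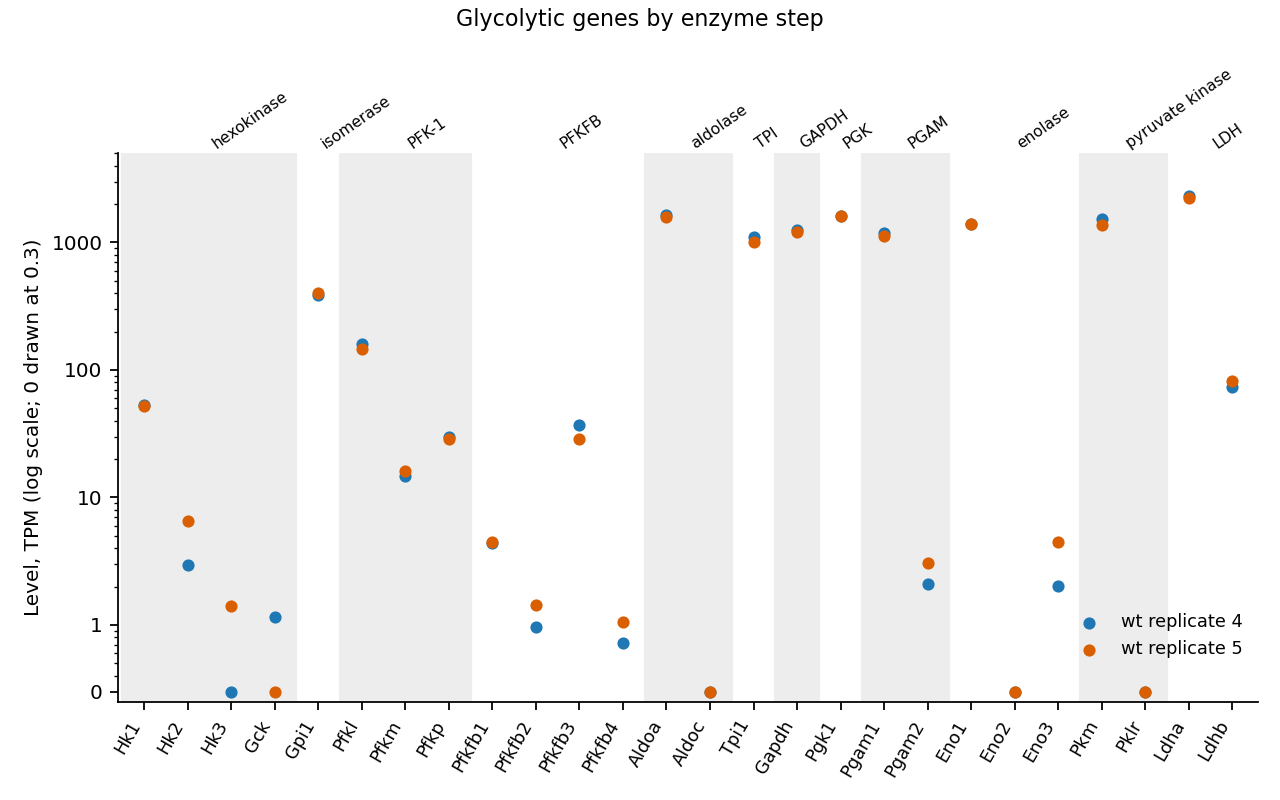
TPM on a log scale of glycolytic genes, grouped by enzyme step, in wt replicates 4 (blue) and 5 (orange), with 0 drawn at 0.3. Each step with several genes has 1 leading gene, such as Ldha at 2319.6 and 2246 TPM and Hk1 at 53.1 and 52.6 TPM, and Eno2, Aldoc and Pklr lie at 0.

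Mitochondrial pathways were also complete at this depth. All 16 tricarboxylic acid cycle genes, 36 complex I genes and 17 ATP synthase genes reached 5 TPM. Their medians were 156, 206 and 348 TPM. The cycle was led by Sdhd at 516 and 502 TPM and Mdh2 at 419.9 and 402 TPM (a mean of 411 TPM, or 672 TPM with the longest transcript as gene length), and citrate synthase (Cs) had 151 and 166 TPM. Of 26 genes of fatty-acid uptake and oxidation together, 20 reached 5 TPM. Cpt1a, which controls entry into mitochondria, had 38.8 and 35.4 TPM and was 90.3% and 91.7% of the Cpt1 total, and Acadl had 299 and 289 TPM. The uptake genes Fabp4 and Cd36 stood above both.

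Biosynthetic genes had lower medians than the tricarboxylic acid cycle, complex I and ATP synthase lists. Of 20 cholesterol synthesis genes, 18 reached 5 TPM with a median of 39.4 TPM, led by Fdps at 107 and 82.7 TPM. In serine and one-carbon metabolism, Shmt2 had 115 and 114 TPM and Psat1 65.2 and 70.3 TPM, while Phgdh, the first enzyme of serine synthesis, had 4.94 and 4.15 TPM (7 and 4 counts). The 7 pentose phosphate genes all reached 5 TPM, with a median of 61.4 TPM, Taldo1 at 363 and 411 TPM and the entry enzyme G6pdx at 35.3 and 45.2 TPM. Redox genes were led by Prdx1 at 1390.2 and 1277 TPM and Txn1 at 974 and 971 TPM, whereas Nqo1 and Sod3 had no count. Ribosomal protein genes took 69902 and 79756 TPM in sum. This family has many near-identical copies, so its single members are uncertain.

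Genes of the cell cycle were expressed throughout. All 22 DNA replication genes and all 22 mitotic genes reached 5 TPM, with medians of 95.8 and 104 TPM. Pcna, the replication clamp, had 464 and 454 TPM, the helicase gene Mcm3 269.9 and 237 TPM and the ribonucleotide reductase gene Rrm2 215 and 197 TPM. Among mitotic genes, Ccnb2 had 365 and 340.1 TPM, Ube2c 361 and 264 TPM and Top2a 202 and 163 TPM. Mki67, a proliferation marker, had 98.1 and 56.4 TPM and was 1.74-fold higher in replicate 4 (95% interval 1.49 to 2.04, counting error only). Cdk4, a G1 kinase, had 577 and 586 TPM. Inhibitors were expressed as well, with Cdkn1c (p57) at 591 and 653 TPM, rank 249, Cdkn1a (p21) at 104 and 119.7 TPM and Cdkn1b (p27) at 13.1 and 5.66 TPM. Cdkn2a and Cdkn2b had no count. The share of cells in cycle cannot be read from bulk RNA.

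Transcripts of other heart cells were found at low levels, and globin transcripts at higher ones. Of 106 genes from 10 lists, 58 reached 1 TPM, 32 reached 5 TPM (30.2% against 43.3% of all genes), 29 had 10 counts in each library and 17 had no count. The summed level of the pan-endothelial list was 16248 and 16152 TPM. It was 74.8 and 75.5 times that of the cardiomyocyte list, whose 17 genes summed to 217 and 214 TPM. Actc1, cardiac α-actin, had 89.0 and 79.6 TPM and Tnnt2, cardiac troponin T, 5.89 and 6.32 TPM. The mean of Tnnt2, 6.10 TPM, became 10.5 TPM with the longest transcript as gene length. Myh6 had 1 and 1 counts, and Ryr2, the calcium release channel, had none (up to 0.183 and 0.269 TPM). In the fibroblast and valve mesenchyme list 8 of 13 genes reached 5 TPM and the sums were 136 and 178 TPM, with Col3a1 at 19.3 and 32.0 TPM and Pdgfra at 0.7 and 3.09 TPM.

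The epicardial and mural lists rested on a few genes. The epicardial list summed to 75.6 and 97.2 TPM, of which Wt1 made up 77.1%. Wt1, a factor of the epicardium that is also known from coronary endothelium, had 70.0 and 63.2 TPM (247 and 152 counts). Tbx18 had 1 and 0 counts and Upk3b 0 and 1 counts. The mural list summed to 275 and 227 TPM. Kcnj8 and Abcc9, the subunits of a potassium channel common in pericytes, had 117 and 97.1 TPM (170 and 96 counts) and 118 and 78.2 TPM (564 and 254 counts). The defining mural genes were at or near 0: Myh11 had no count (up to 0.693 and 1.02 TPM), Pdgfrb had 0 and 1 counts and Cspg4 3 and 1 counts. Of the other members, Rgs5 had 3 and 2 counts. Acta2 had 32.8 and 29.3 TPM (41 and 25 counts) and Tagln 3.53 and 18.2 TPM (4 and 14 counts). In all, 3 of 11 mural genes reached 5 TPM in both libraries.

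Blood-cell genes differed between the libraries. The erythroid list summed to 2346 and 826 TPM, nearly all of it globin, and the pan-endothelial sum was only 6.93 and 19.6 times as high. Hba-a2 had 966 and 259 TPM and Hbb-bs 521 and 138 TPM, 3.79-fold higher in replicate 4 (95% interval 2.71 to 5.42), whereas the embryonic globin Hbb-y had 13.9 and 143 TPM (5 and 35 counts). Globin genes have near-identical copies, so the division among them is uncertain. The macrophage list summed to 121 and 305 TPM, and 14 of its 15 genes were higher in replicate 5. C1qb, of complement, had 12.9 and 94.8 TPM (8 and 40 counts) and Csf1r 4.86 and 9.82 TPM. Platelet genes summed to 60.1 and 71.7 TPM, with Pf4 at 36.5 and 35.7 TPM. Lymphocyte genes, 6 of 6, had no count. The neural crest and glia list summed to 1.82 and 1.39 TPM and the epithelial list to 2.44 and 18.3 TPM, of which Krt18 was 80.9%. Whether these transcripts came from whole cells or from free RNA was not tested.

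Genes that respond to tissue dissociation were present, with 16 of 18 at 5 TPM and a median of 127 TPM. Fos had 339.6 and 384 TPM, Ier2 472 and 519.9 TPM and Egr1 75.9 and 94.3 TPM, while the heat-shock gene Hspa1a had 3.55 and 5.21 TPM. These genes can also respond to growth factors and flow, and the part of handling in their level was not tested. Both libraries contained transcripts of both sexes: Xist had 14.3 and 24.99 TPM and the Y-linked Ddx3y 52.3 and 30.2 TPM. Replicate 4 had the higher Ddx3y and replicate 5 the higher Xist.

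Gene by gene, the libraries otherwise differed little, although some lists leaned 1 way. Of 86 ribosomal protein genes, 76 were higher in replicate 5 and 5 in replicate 4. Of 20 cholesterol synthesis genes, 17 were higher in replicate 4 and 3 in replicate 5. Of 18 dissociation-response genes, 14 were higher in replicate 5 and 4 in replicate 4. In replicate 4, 12 of 14 tip-cell genes and 13 of 16 heart-capillary genes were higher. In replicate 5, 10 of 12 endocardial genes were higher, as were 8 of 10 epicardial genes, of which 1 had 10 counts in each library. The pan-endothelial list was more even, with 13 genes higher in replicate 4 and 17 in replicate 5. The part of cell composition in these leanings was not tested. Among 5555 genes with at least 50 counts in each, the median absolute difference was 0.15 on the log2 scale, against 0.12 from counting error alone, and 97.7% lay within 1.5-fold. Across these genes the log2 levels had a Pearson r of 0.99, and genes are not independent replicates. Only 4 genes differed more than 2-fold, and they fell into 2 kinds. Hba-a2 and Hba-a1 were higher in replicate 4. Eln (elastin) had 13.0 and 142 TPM, 10.9-fold higher in replicate 5 (95% interval 8.3 to 15, counting error only), and its mean of 77.5 TPM became 120.0 TPM with the longest transcript as gene length. Fbln5 (fibulin 5), which assembles elastic fibres, had 16.3 and 94.4 TPM, 5.80-fold higher in replicate 5 (95% interval 4.40 to 7.76). Mfap2, a microfibril gene, had 73.9 and 138 TPM and Hapln1, a matrix link protein of cushions, 21.4 and 41.0 TPM, while Fbn1, another microfibril gene, had 43.9 and 37.0 TPM. The smooth-muscle genes Tagln (3.53 and 18.2 TPM) and Acta2 (32.8 and 29.3 TPM) rested on 4 and 14 and 41 and 25 counts, and their part in the elastic-fibre difference was not tested. Ccl21a, named above with the lymphatic genes, was 3.72-fold higher in replicate 5 (95% interval 2.41 to 5.88). The next largest differences toward replicate 4 were Chtf8 (1.98-fold), Herc1 (1.97-fold) and Trappc1 (1.89-fold), and toward replicate 5 Mtpap (1.97-fold).

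**Figure D5:**
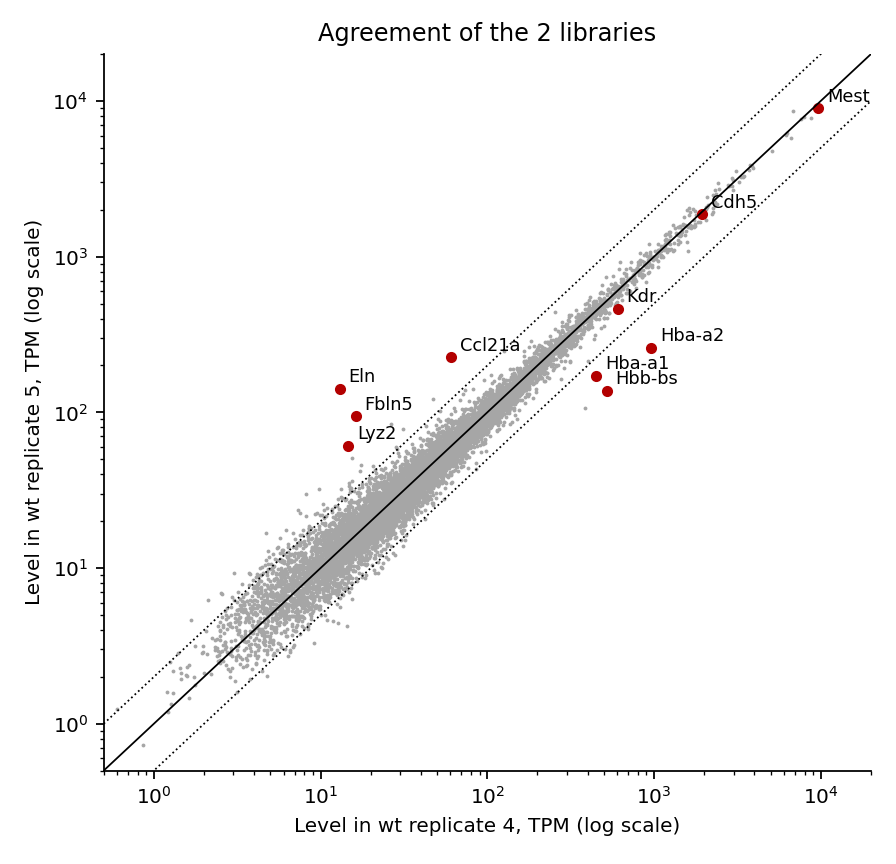
TPM in wt replicate 5 against replicate 4, both on log scales, for nuclear protein-coding genes with at least 10 counts in each library, with the line of equality and dotted lines at 2-fold. Eln, Fbln5, Ccl21a and Lyz2 lie above the band, Hba-a2, Hba-a1 and Hbb-bs below it, and Cdh5, Kdr and Mest within it.

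The top of the list combined fetal growth, cytoskeletal and housekeeping genes with the matrix and membrane genes of endothelium. Mest, an imprinted gene of fetal tissues, was the highest of the ranked genes, nuclear protein-coding genes without Lars2, at 9617 and 8974 TPM. The actins Actb and Actg1 had 8788 and 7775 TPM and 7897 and 7943 TPM, the elongation factor Eef1a1 6785 and 8622 TPM and the actin-binding thymosin Tmsb4x 7576 and 7687 TPM. Ubb (ubiquitin), Sparc, Ftl1 (ferritin light chain), Ptma, the tubulins Tuba1a and Tuba1b, the chaperone Hsp90ab1, the histone Hist1h2ap, S100a11 and the caveolar gene Cav1 complete the 15 highest once predicted genes are left out. Cav1, which shapes membrane pits of endothelium, had 3400.0 and 3255 TPM, below Hsp90ab1 at 3907 and 3693 TPM. Tubulin and histone genes have close copies and are uncertain. The top 10 genes held 6.87% and 6.78% of all TPM and the top 100 held 24.3% in both libraries. With the longest transcript as gene length, Mest remained first and 11 of these 15 genes stayed among the highest 15.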

How the data were processed

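RNA was measured in 6 libraries of sorted heart endothelial cells, of which the 2 wt libraries were used and the other 4 were not. cDNA was made with SMART-Seq v4 and libraries with Nextera XT, per the labels' protocols, which give both single and paired reads. The deposited values are expected counts per gene, with no normalization by the authors. CASAVA, cutadapt, RSEM and build GRCm38 are named in the submitters' processing notes, and their versions are not given in the sources used here. Counts were rounded (4.77% and 4.29% of all values, zeros included, were not whole). Gene names, biotypes and exon lengths came from GENCODE vM21 on GRCm38, which matched 97.9% of 41214 identifiers. TPM was computed from rounded counts and exon-union length over nuclear protein-coding genes without Lars2. Effective lengths were not used here, so short genes are less certain. The libraries had 14020 and 13712 genes above 0, 79.0% and 76.9% of counts in nuclear protein-coding genes, and 1.33% and 2.26% in mitochondrial rRNA. A gene with 0 counts is given with the level that 3 counts allow. Intervals of a ratio are exact binomial (Clopper-Pearson, 95%), and intervals and limits cover counting error only. Scripts used Python 3.11.15, pandas 2.3.3, numpy 2.4.6 and scipy 1.17.1, and were tested on simulated data.

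The members and the 44 gene lists and 44 families were chosen with earlier results of these data known. Named genes are the markers, each list's defining genes and up to 4 further members by level, members at 0 in the lists of vessel subtypes and other cells, the 15 highest genes and transcription factors, the 10 highest of each receptor class, isoforms of an enzyme step, and the 5 genes highest in each library relative to the other. Predicted genes were left out, and some list members are counted but not reported here by name. Genes outside this rule (Hspa1a, Fbn1, Acta2, Mki67, Etv2 and Sox4 among them), the ligand and receptor pairs, the imprinted and noncoding lists and the promoters shown were chosen after their values were seen. The kit does not mark strand, so overlapping and antisense genes cannot be separated. Alternatives were other scalings, lengths, thresholds, count filters, thinning, rounding and leaving out each library.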

Additional observations from a re-analysis of the deposited data

How the results depend on the processing

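Of 67 alternatives to 7 summary results, 64 stayed within 1.5 times or, for the library difference, within its spread. The 3 that did not all concern the genes of other cell types. The count of 58 at 1 TPM became 32 at 5 TPM, 29 with at least 10 counts in each library, and 24 with both, a setting chosen after seeing the data. These settings admit fewer genes by construction. Of 135 genes named by the fixed rule, 75 moved by more than 1 SD with the longest transcript as length and 90 with scaling over all genes, the latter all lower (0.763 to 0.789 times), since mitochondrial, noncoding and Lars2 counts then share the fixed sum. Over all 230 genes that the text names at a mean of 5 TPM or more, a wider set chosen after seeing the data, 14 moved over 1.5-fold with the longest transcript, all upward (1.51 to 2.09 times). They were Gnas, Nrp1, Gja1, Lpl, Mef2c, Cd34, Tnnt2, Rbpj, Tkt, Mdh2, Eln, Itga6, Pkm and Nr2f2. Leading isoforms and leading receptors were unchanged with the longest transcript as length. Scaling over all genes multiplies every level of a library by the same factor, so it could not change the order within a library. No paired analysis was possible because only 1 group is described. At 2 libraries of 2521532 and 1732132 counts, levels under 5 TPM rest on few counts.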

Other observations

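Imprinted genes, which are expressed from 1 parental allele and often regulate fetal growth, included some of the most abundant transcripts of the wt cells. This list was drawn up after the values had been seen, and it received no test. Of 24 measured genes, 14 reached 5 TPM in both libraries. Mest led at 9617 and 8974 TPM. H19, a noncoding RNA next to Igf2, had 7003 and 7328 TPM and was the highest long intergenic RNA, about an order of magnitude above Malat1 at 507 and 592 TPM. Igf2 had 2305 and 2201 TPM. Gnas, the stimulatory G protein gene, had 2006 and 1904 TPM. Its annotated exons span several overlapping transcripts, and its rank rose from 43 to 10, and its mean from 1955 to 4085 TPM, with the longest transcript as length. The growth restrainers Cdkn1c and Grb10 had 591 and 653 TPM and 323 and 271 TPM, and the zinc-finger gene Plagl1 had 254 and 271 TPM. Igf2r, which clears IGF2, had 127 and 107 TPM, and Peg10 90.3 and 98.2 TPM. Genes of the Dlk1 and Meg3 cluster were low, with Dlk1 at 1.55 and 5.92 TPM and Meg3 at 1.07 and 3.42 TPM, and Phlda2 and Ascl2 had no count. Both growth-promoting and growth-restraining members were therefore present, and these counts do not say from which allele.

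Among other noncoding genes, Rn7s1 and Rn7s2, copies of the 7SL RNA of the signal recognition particle, were the highest of the list. Each was given the same 13926 and 13995 TPM, so reads of the copies cannot be told apart. Rn7sk, a small nuclear RNA that restrains transcription elongation, had 679 and 1051 TPM (128 and 135 counts). Gas5 had 97.1 and 143 TPM and Tug1 63.1 and 57.5 TPM. Neat1 had 0.676 and 1.99 TPM, far below Malat1.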
